A study of Mus musculus with 6 samples.

Results

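The core circadian clock genes were followed in the injured mouse liver as the 10 genes Arntl, Clock, Npas2, Per1, Per2, Per3, Cry1, Cry2, Nr1d1 and Nr1d2. They were chosen by gene name from the 54532 genes of the deposited count table, each name on a single row. Expression was measured by bulk RNA sequencing of the ischemic liver lobe 12 h after reperfusion began, following 1 h of warm ischemia, a model in which a clamp stops and later readmits the blood supply of some lobes. The IRF8-cKO group (libraries IRF8-cKO-71, then IRF8-cKO-88, then IRF8-cKO-106) came from C57bl/6 mice whose hepatocytes lack interferon regulatory factor 8, a transcription factor, and the WT group (libraries WT-14, then WT-44, then WT-77) from wild-type C57bl/6 mice. All mice went through the same injury and were housed under 12 h light and 12 h dark. The labels give no uninjured liver, no Cre driver or Irf8 allele, no age or sex, and no clock time of the operation or of tissue collection. They also do not say that the numbered libraries are separate animals, so p-values measure only the spread between these samples, which may be technical. Where 3 values of a group are given, they follow the order of its libraries above.

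The mammalian clock is a transcriptional feedback loop. ARNTL (BMAL1), paired with CLOCK or its relative NPAS2, activates genes through E-box elements, and among these are the Per and Cry genes, whose proteins return to repress that activation. The nuclear receptors NR1D1 and NR1D2 (REV-ERB alpha and beta) form a second loop: they are themselves E-box targets, and they repress Arntl, Clock and Npas2 at elements that ROR receptors activate. In liver these genes cycle strongly over the day and drive rhythms in lipid, glucose and bile acid metabolism. A single collection of tissue thus holds a level and not a rhythm. Whether both groups were collected at the same hour of the day is not given. Group and hour of collection therefore cannot be told apart in any difference below.

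Promoter sequence of Arntl, Per1, Cry1 and Nr1d1 is shown first, because these genes fall on different sides of these loops. Where Arntl and Per1 had more than 1 window, the window with a match is the one shown. The windows are those of RefSeq on GRCm38.p6 (the mm10 assembly, the build of the deposited counts), from 250 bases before to 50 bases after an annotated transcript start, on the strand of the gene. A set of 3 element types was searched on both strands, none of which contains another: the E-box CACGTG, the ROR and NR1D element TAGGTCA, and a D-box core TTANGTA. Capitals mark a match, and the windows lie at chr7:113207261-113207560 (plus strand, Arntl), chr11:69098699-69098998 (plus strand, Per1), chr10:85185005-85185304 (minus strand, Cry1) and chr11:98775328-98775627 (minus strand, Nr1d1).
Arntl: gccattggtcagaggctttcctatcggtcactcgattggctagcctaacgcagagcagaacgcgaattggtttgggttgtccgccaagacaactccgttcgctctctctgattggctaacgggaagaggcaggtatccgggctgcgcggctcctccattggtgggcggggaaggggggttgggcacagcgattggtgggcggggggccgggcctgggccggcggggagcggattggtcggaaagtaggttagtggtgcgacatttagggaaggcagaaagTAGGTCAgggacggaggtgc
Per1: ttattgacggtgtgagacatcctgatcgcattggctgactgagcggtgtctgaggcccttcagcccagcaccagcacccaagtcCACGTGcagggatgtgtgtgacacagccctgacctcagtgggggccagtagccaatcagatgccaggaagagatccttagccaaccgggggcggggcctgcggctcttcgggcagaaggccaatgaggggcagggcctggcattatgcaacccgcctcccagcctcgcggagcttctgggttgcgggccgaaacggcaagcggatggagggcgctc
Cry1: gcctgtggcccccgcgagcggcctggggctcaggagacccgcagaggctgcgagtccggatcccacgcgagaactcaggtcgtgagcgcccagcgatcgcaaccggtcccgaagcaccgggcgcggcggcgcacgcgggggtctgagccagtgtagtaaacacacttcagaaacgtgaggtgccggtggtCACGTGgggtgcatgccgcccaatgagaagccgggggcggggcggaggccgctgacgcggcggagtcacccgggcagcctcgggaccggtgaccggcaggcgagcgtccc
Nr1d1: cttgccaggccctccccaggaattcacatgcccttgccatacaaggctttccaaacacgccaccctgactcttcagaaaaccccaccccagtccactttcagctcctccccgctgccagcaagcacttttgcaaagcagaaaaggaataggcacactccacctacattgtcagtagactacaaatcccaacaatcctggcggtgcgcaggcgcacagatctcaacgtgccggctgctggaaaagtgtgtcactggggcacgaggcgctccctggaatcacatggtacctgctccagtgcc
Of the 2 Arntl windows, the downstream one shown held TAGGTCA with its first base at position 31, counting the start as 1, and the other held none of the searched letters. The Per1 window shown held CACGTG with its first base at -166, and the Cry1 window held CACGTG at -60. None of the searched letters stood in the Nr1d1 window or in the second Per1 window. Of the 10 genes, 9 matched the RefSeq table, with 13 windows in all, and Per2 was not matched. In 9 of the windows, every Clock window among them, none of the searched letters stood. E-box letters stood in 2 of these 13 windows, the TAGGTCA letters in 1 and the D-box core in 1, the Per3 window. Over all 32817 promoter windows of this length the shares were 7.15%, 2.61% and 6.76%. Such a match is a description of letters and not evidence of a bound site.

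The gene counts summed to 14758237 to 16805830 reads per library. Irf8 itself was covered by 92, 109 and 90 reads in the 3 IRF8-cKO libraries. It was covered by 152, 110 and 155 reads in the 3 WT libraries. In CPM (read counts scaled to library size), Irf8 stood at 5.67, 6.72 and 4.17 in the 3 IRF8-cKO libraries. It stood at 9.32, 9.50 and 10.3 CPM in the 3 WT libraries, with no overlap between the groups. Its log2 fold change of -0.81 (SE 0.33) did not pass in the edgeR quasi-likelihood test (adjusted p = 0.174), and reads summed over the gene do not tell which exons they came from. The tissue label was borne out by the hepatocyte markers: all 10 were read in every library, and each had a mean level above that of at least 97.8% of tested genes. Reads of mitochondrial genes made up 5.99% to 7.14% of counts in IRF8-cKO libraries, against 7.19%, 20.2% and 14.5% in the 3 WT libraries. Only WT-14 among the WT libraries was close to the IRF8-cKO libraries in this share.

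Nr1d1 was the only one of the 10 core clock genes that passed the test over all genes, and it fell in IRF8-cKO livers. All 10 were tested, as each passed the filter on low counts. By edgeR's quasi-likelihood test with an adjusted p under 0.05, 1 fell, 0 rose and 9 did not pass, while 4 (Arntl, Clock, Per1 and Nr1d1) had an unadjusted p under 0.05. Of all 13134 genes tested, 0.937% were called lower, 0.449% higher and 1.39% in either direction, and 24.1% had an unadjusted p under 0.05. For 4 of the 10 genes no IRF8-cKO level fell within the WT range or the reverse, with Arntl and Clock higher and Per1 and Nr1d1 lower in IRF8-cKO. Among all tested genes 28.9% had groups that did not overlap, 14.4% higher and 14.5% lower. The median log2 fold change of the 10 genes was -0.11 beside 0.03 over all genes tested, and their median absolute log2 fold change was 0.83 beside 0.50. DESeq2, run as an alternative, called all 4 non-overlapping genes (2 higher, 2 lower), but it called 1423 of the 13134 genes (613 higher, 810 lower). Limma-voom called Nr1d1 alone of the 10 genes, and 111 genes in the whole table.

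**Figure D1:**
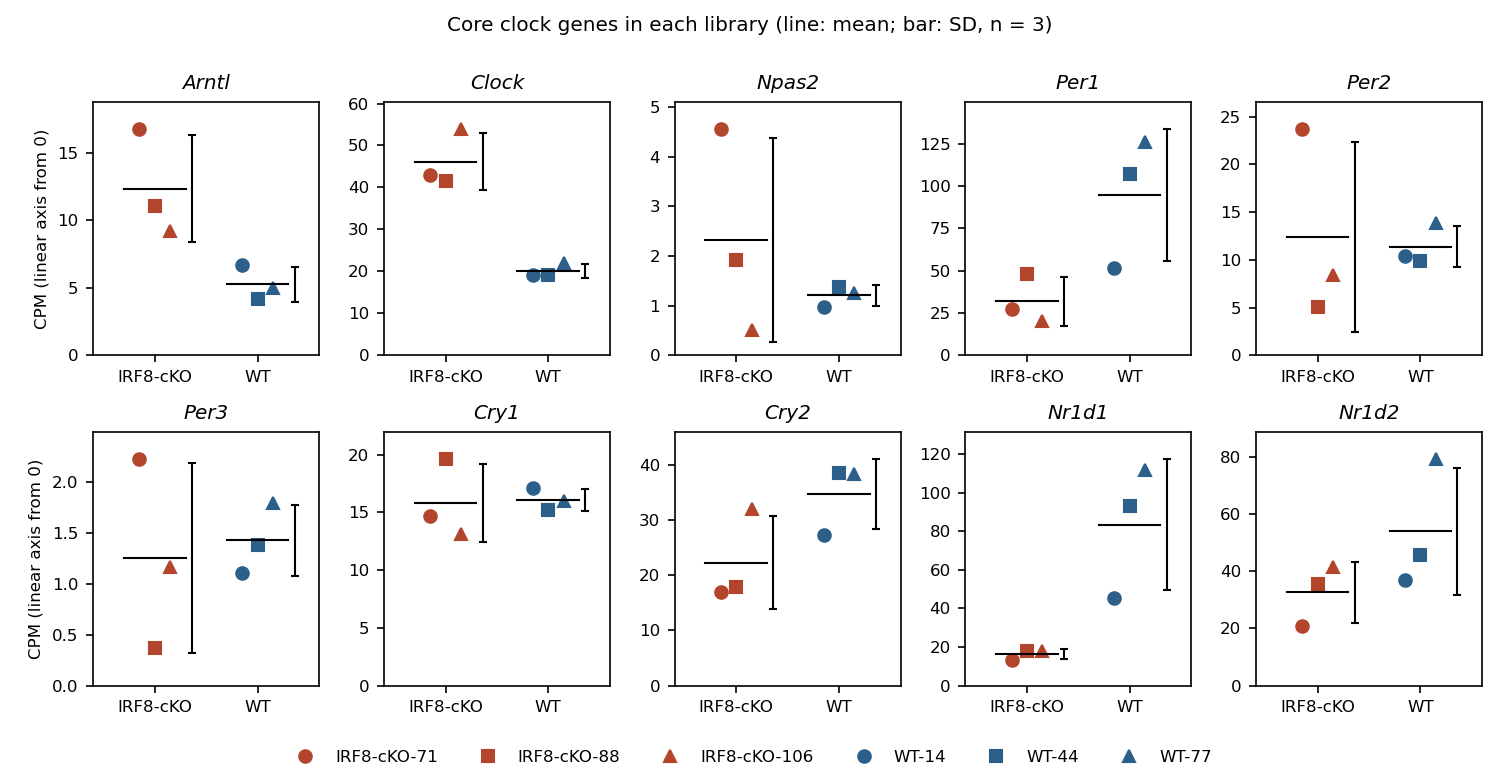
Level of each core clock gene in every library, in CPM (scaled read counts) on a linear axis from 0, with IRF8-cKO left and WT right. Points are libraries, lines are means and bars are SD (n = 3 each). The groups lie apart for Arntl, Clock, Per1 and Nr1d1 and overlap for the other 6 genes.

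The nuclear receptor repressors come first because they hold the passing call. Nr1d1 (ENSMUSG00000020889, chromosome 11, 98767932 to 98775333, minus strand, mm10) encodes the haem-binding receptor that represses Arntl. It stood at 13.1, 17.95 and 17.7 CPM (read counts scaled to library size with TMM factors) in the 3 IRF8-cKO libraries, from 213, 291 and 382 reads. In the 3 WT libraries it stood at 45.5, 93.1 and 111 CPM, from 743, 1078 and 1678 reads. The 3 IRF8-cKO libraries lay close together, while WT-14 held less than either other WT library but still more than any IRF8-cKO library. The mean was 16.3 ± 2.71 CPM in IRF8-cKO and 83.4 ± 34.0 CPM in WT (SD, n = 3 each). This is a log2 fold change of -2.36 (SE 0.36), a level 5.12-fold lower in IRF8-cKO, with an edgeR adjusted p of 0.0312. Permuting the 6 libraries (exact, two-sided, on log2 CPM) gave p = 0.1, and no lower p is possible with 3 and 3 libraries.

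The call on Nr1d1 rested on single libraries although its direction did not. With 1 library left out its log2 fold change ran from -2.65 (without WT-14) to -2.10 (without WT-77). The adjusted p was 0.161 without WT-44, 0.170 without WT-77 and 0.0732 without IRF8-cKO-106, and edgeR then called 1, 0 and 20 genes in the whole table. The call held with each of the other 3 libraries left out and in every other alternative run, DESeq2 and limma-voom among them. With a correction for gene length the edgeR adjusted p of Nr1d1 was 0.0474, close to the threshold of 0.05. The labels do not say that strand was used in counting, and 263 of the 3077 exonic bases of Nr1d1 (8.55%) overlap exons of Thra, the thyroid hormone receptor alpha gene on the opposite strand. Thra had 31 to 107 reads per library, fewer than Nr1d1 had in any library, and reads of both genes in the shared stretch cannot be told apart.

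Nr1d2 (chromosome 14), the paralog with overlapping function, stood at 20.8, 35.5 and 41.5 CPM in the 3 IRF8-cKO libraries, against 37.0, 45.7 and 79.1 CPM in the 3 WT libraries. IRF8-cKO-106 lay above WT-14, so the groups overlapped. The log2 fold change of -0.73 (SE 0.36) did not pass (edgeR adjusted p = 0.245), and it was -0.35 without WT-77. Within a library the ratio of Nr1d1 to Nr1d2 does not depend on the scaling between libraries. Per gene length, this log2 ratio was 0.16, -0.16 and -0.41 in the 3 IRF8-cKO libraries and 1.11, 1.84 and 1.31 in the 3 WT libraries. The paralogs were thus at nearly equal level in each IRF8-cKO library, while Nr1d1 led in each WT library, and the groups did not overlap.

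The activators Arntl and Clock were at higher levels in every IRF8-cKO library than in any WT library, but neither passed over all genes. Arntl (ENSMUSG00000055116, chromosome 7, 113207465 to 113314126, plus strand), the subunit common to both activator pairs and a target of the NR1D repressors, had 16.8, 11.0 and 9.22 CPM in the 3 IRF8-cKO libraries. It had 6.68, 4.14 and 4.98 CPM in the 3 WT libraries. The means were 12.3 ± 3.94 CPM in IRF8-cKO and 5.27 ± 1.29 CPM in WT (SD, n = 3 each). The log2 fold change of 1.22 (SE 0.36) had an edgeR adjusted p of 0.0948, and an exact permutation p of 0.1. Leaving out 1 library moved it between 0.95 (IRF8-cKO-71 left out) and 1.43 (WT-14 left out).

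Clock (ENSMUSG00000029238, chromosome 5, 76209868 to 76304792, minus strand), the histone acetyltransferase partner of ARNTL, was the tightest of the 10 genes in the IRF8-cKO group. It had 43.0, 41.5 and 54.0 CPM in the 3 IRF8-cKO libraries, against 19.2, 19.1 and 22.1 CPM in the 3 WT libraries. The highest library of each group exceeded its lowest by 1.30-fold in IRF8-cKO and 1.16-fold in WT, and a wide gap lay between the groups. The log2 fold change was 1.20 (SE 0.25), and the edgeR adjusted p of 0.0501 missed the threshold by a narrow margin (exact permutation p = 0.1). On all libraries with the main settings, edgeR called 182 genes in the whole table. Clock passed with upper-quartile scaling (adjusted p = 0.0488, 202 genes called) and with a filter of 1 CPM in 3 libraries (0.0493, 187 called). It also passed without IRF8-cKO-71 (0.0480, 143 called). Far more genes were called in the other settings where it passed. These were no low-count filter (0.0054, 1723 called of 24095 tested), DESeq2 (0.00208, 1423 called) and IRF8-cKO-88 left out (0.0246, 1205 called). With the remaining settings the adjusted p of Clock ranged up to 0.206, without WT-44. Clock has the longest gene model of the 10, at 13727 bases. Longer genes stood relatively higher in IRF8-cKO-106 and IRF8-cKO-88 (Spearman correlation across genes of the deviation from the gene mean with length, 0.29 and 0.21) than in IRF8-cKO-71 (-0.07) or in the WT libraries (-0.16, -0.22 and -0.06). With a correction for gene length the log2 fold change of Clock was 1.03 (adjusted p = 0.0722).

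Npas2 (chromosome 1), which can take the place of CLOCK, was covered by few reads and spread widely among IRF8-cKO libraries. It had 74, 31 and 11 reads (4.56, 1.91 and 0.51 CPM) in the 3 IRF8-cKO libraries, against 16, 16 and 19 reads (0.98, 1.38 and 1.26 CPM) in the 3 WT libraries. The highest IRF8-cKO library exceeded the lowest 8.95-fold, and WT lay inside that range. The log2 fold change of 0.94 (SE 0.70, edgeR adjusted p = 0.428) came to 0.00 without IRF8-cKO-71.

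Of the period genes, whose proteins pair with cryptochromes to repress the activators, none passed the edgeR test, and the groups lay apart for Per1 alone. Per1 (ENSMUSG00000020893, chromosome 11, 69095217 to 69109960, plus strand), which is also induced within minutes by cAMP and glucocorticoid signals, had 27.3, 48.1 and 20.2 CPM in the 3 IRF8-cKO libraries. It had 51.3, 107 and 126 CPM in the 3 WT libraries. The gap between the groups was narrow, between 48.1 CPM in IRF8-cKO-88 and 51.3 CPM in WT-14. The means were 31.9 ± 14.5 CPM in IRF8-cKO and 94.9 ± 39.0 CPM in WT (SD, n = 3 each). The log2 fold change of -1.58 (SE 0.42) did not pass (edgeR adjusted p = 0.0794, exact permutation p = 0.1). Without IRF8-cKO-88 it was -1.996 and passed (edgeR adjusted p = 0.0198), where edgeR called 1205 genes in the whole table. Without WT-77 or IRF8-cKO-106 the log2 fold change was -1.32.

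Per2 (chromosome 1), whose loss disturbs the rhythm of mice, had 23.7, 5.06 and 8.39 CPM in the 3 IRF8-cKO libraries, against 10.4, 9.93 and 13.8 CPM in the 3 WT libraries. IRF8-cKO-71 stood above all WT libraries and the other 2 IRF8-cKO libraries below them. The log2 fold change of 0.12 (SE 0.51, edgeR adjusted p = 0.905) became -0.75 without IRF8-cKO-71 and 0.49 without IRF8-cKO-88. Per3 (chromosome 4), which is dispensable for the basic rhythm in mice, had only 36, 6 and 25 reads (2.22, 0.37 and 1.16 CPM) in the 3 IRF8-cKO libraries. It had 18, 16 and 27 reads (1.10, 1.38 and 1.79 CPM) in the 3 WT libraries, inside the IRF8-cKO range. Its log2 fold change was -0.19 (SE 0.63, edgeR adjusted p = 0.875), and -0.86 without IRF8-cKO-71. Per2 and Per3 kept the same order over the IRF8-cKO libraries, highest in IRF8-cKO-71 and lowest in IRF8-cKO-88, whereas Per1 was highest in IRF8-cKO-88.

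The cryptochrome genes, encoding the partners of PER in repression, overlapped between the groups. Cry1 (chromosome 10), the stronger repressor, was the steadiest of the 10 genes between the groups, at 14.7, 19.6 and 13.1 CPM in the 3 IRF8-cKO libraries and 17.1, 15.2 and 16.0 CPM in the 3 WT libraries. Its log2 fold change was -0.03 (SE 0.28, edgeR adjusted p = 0.960), and the standard error leaves room for modest differences in either direction. Cry2 (chromosome 2) had 16.96, 17.9 and 32.0 CPM in the 3 IRF8-cKO libraries, against 27.3, 38.4 and 38.2 CPM in the 3 WT libraries. IRF8-cKO-71 and IRF8-cKO-88 lay below all WT libraries and IRF8-cKO-106 within their range, and the log2 fold change of -0.64 (SE 0.32) did not pass (edgeR adjusted p = 0.242). Of the exonic bases of Cry2, 4.67% overlap the noncoding gene D930015M05Rik on the opposite strand, which had 1 to 7 reads per library.

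**Figure D2:**
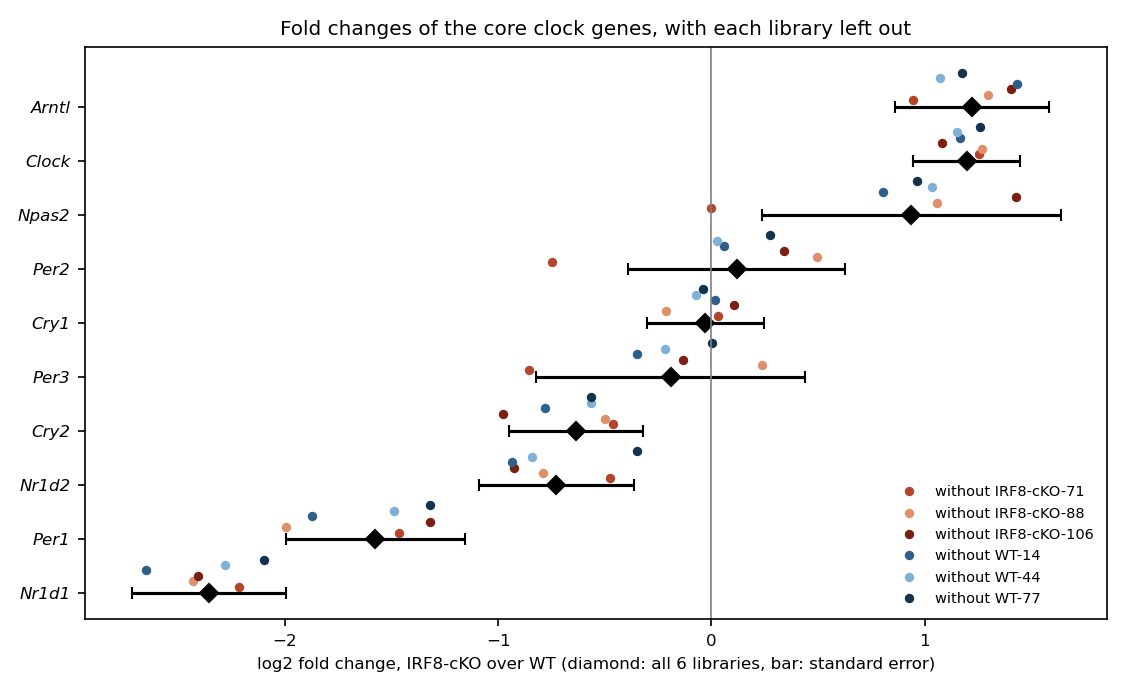
Log2 fold change of each core clock gene, IRF8-cKO over WT, on all 6 libraries (diamond, bar: standard error) and with each library left out (coloured points). Nr1d1, Per1, Nr1d2 and Cry2 stay below 0 and Arntl and Clock above 0 with any 1 library left out. Per2 and Npas2 shift most without IRF8-cKO-71, to -0.75 and 0.00.

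The levels of Nr1d1 and of its target Arntl were also compared within each library, where scaling between libraries plays no part. The log2 ratio of Nr1d1 to Arntl per gene length was 0.94, 1.98 and 2.22 in the 3 IRF8-cKO libraries. It was 4.04, 5.74 and 5.74 in the 3 WT libraries. Nr1d1 exceeded Arntl in every library, but by far less in each IRF8-cKO library. The group means were 1.72 ± 0.68 in IRF8-cKO and 5.17 ± 0.98 in WT (SD, n = 3 each), a difference of -3.46, or 11.0-fold. With 1 library left out the difference ran from -4.02 to -3.07. The separation follows from the levels above, as Nr1d1 was lower and Arntl higher in every IRF8-cKO library than in any WT library. The Arntl to Clock ratio, between the transcripts of the subunits of 1 activator, averaged -1.06 ± 0.59 in IRF8-cKO and -1.07 ± 0.37 in WT on the log2 scale. The mean ratio of these transcripts was thus nearly equal in both groups, although single libraries ranged widely. Protein was not measured. In all, 8 ratios were computed, and apart from Nr1d1:Arntl and Nr1d1:Nr1d2 the other 6 overlapped between groups. These ratios are given as descriptions, with no test.

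**Figure D3:**
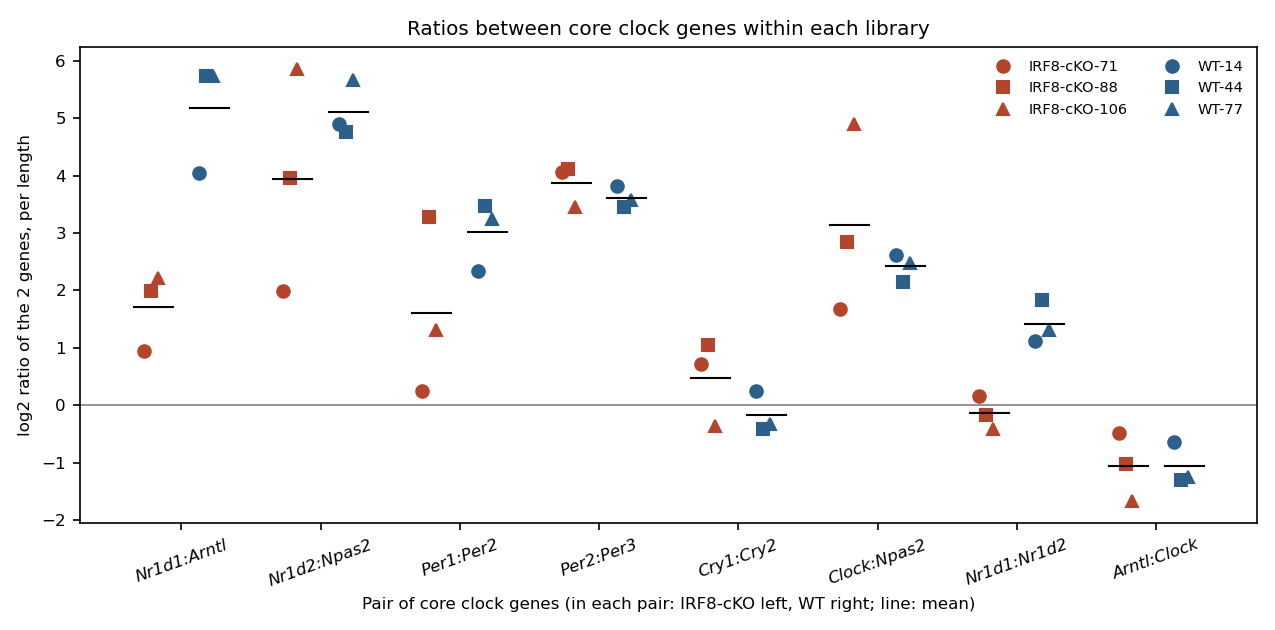
Log2 ratio of 8 pairs of core clock genes within each library, per gene length, IRF8-cKO left and WT right in each pair; lines are means of 3 libraries. The groups lie apart for Nr1d1:Arntl (means 1.72 and 5.17) and Nr1d1:Nr1d2 (-0.14 and 1.42) and overlap for the other 6 pairs.

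Levels of different genes were compared per gene length, as RPKM, which is CPM divided by the length of the gene model in kilobases. In IRF8-cKO livers Nr1d2 (6.02 ± 1.97 RPKM), Per1 (5.66 ± 2.57), Nr1d1 (5.28 ± 0.88) and Cry1 (4.73 ± 1.02) had the highest mean levels (SD, n = 3 each). Cry2 (3.52), Clock (3.36), Per2 (2.12), Arntl (1.64), Npas2 (0.49) and Per3 (0.13) followed in mean RPKM. Of neighbours in this order, only Arntl and Npas2 did not overlap over the IRF8-cKO libraries. In WT livers Nr1d1 had the highest mean level (27.1 ± 11.1 RPKM), followed by Per1 (16.9 ± 6.92) and Nr1d2 (9.97 ± 4.11), whose ranges overlapped from one to the next (SD, n = 3 each). Cry2 (5.48) and Cry1 (4.82) came next and overlapped with each other, and then Per2 (1.94), Clock (1.47), Arntl (0.70), Npas2 (0.25) and Per3 (0.15), each below the one before in every WT library. Clock stood above Per2 in mean level in IRF8-cKO livers, though with overlapping ranges, and below it in every WT library.

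The spread among libraries of a group was itself uneven. On the log2 CPM scale, 7 of the 10 genes had the larger SD in IRF8-cKO and 3 (Per1, Nr1d1 and Nr1d2) in WT, beside 62.9% of all tested genes with the larger SD in IRF8-cKO. IRF8-cKO-71 held the highest IRF8-cKO level of Arntl, Npas2, Per2 and Per3 and the lowest of Cry2, Nr1d1 and Nr1d2. Among WT libraries WT-77 was highest for 6 genes and lowest for 0, and WT-14 was lowest for 6, with Per1, Per3, Nr1d1 and Nr1d2 in both sets. WT-14, whose mitochondrial share is close to that of the IRF8-cKO libraries, had 45.5 CPM of Nr1d1 (at most 17.95 in IRF8-cKO), 19.2 CPM of Clock (at least 41.5 in IRF8-cKO), 6.68 CPM of Arntl (at least 9.22 in IRF8-cKO) and 51.3 CPM of Per1 (at most 48.1 in IRF8-cKO). These genes were those whose groups did not overlap, so WT-14 lay outside the IRF8-cKO range by that choice. The part of the mitochondrial share in these levels was not tested.

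Other genes of the clock pathway were taken as a list of 25 genes, of which 24 were tested and Rorb had no read in any library. By the edgeR test 5 of the 24 fell, 0 rose and 19 did not pass, beside 0.937% of all tested genes called lower and 0.449% higher. The list was chosen with earlier results of these data known, so these shares are a description and not a test of the list. The median log2 fold change of the list was -0.40. The 5 that fell were Dbp, Bhlhe41, Ciart, Usp2 and Noct, and Dbp is a textbook E-box target of the ARNTL and CLOCK pair. Without IRF8-cKO-106, WT-44 or WT-77, 0 of the list was called, and 2 were called with library totals in place of TMM scaling.

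Dbp, a D-box activator whose transcript is among the most strongly cycling in liver, had 1.23, 3.70 and 1.67 CPM in the 3 IRF8-cKO libraries, against 32.7, 24.3 and 19.998 CPM in the 3 WT libraries. It fell 11.7-fold (log2 fold change -3.55, SE 0.45, edgeR adjusted p = 0.0243), and its groups lay far apart. Bhlhe41 (DEC2), a repressor that competes at E-boxes, averaged 1.23 ± 0.224 CPM in IRF8-cKO and 9.29 ± 4.77 CPM in WT (SD, n = 3 each; log2 fold change -2.91, edgeR adjusted p = 0.0339). Ciart (CHRONO), a repressor of the activator pair, averaged 1.23 ± 0.163 CPM in IRF8-cKO and 5.59 ± 1.39 CPM in WT (log2 fold change -2.17, edgeR adjusted p = 0.0446). The other repressors of the class, Bhlhe40 and Nfil3, did not pass. Bhlhe40, named after its values were seen, averaged 79.6 ± 47.3 CPM in IRF8-cKO and 289 ± 132 CPM in WT (log2 fold change -1.86, edgeR adjusted p = 0.0796).

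Usp2, a deubiquitinase with a rhythmic transcript, fell 4.19-fold (edgeR adjusted p = 0.0446) and Noct, a rhythmic phosphatase gene first described as a deadenylase, 3.28-fold (edgeR adjusted p = 0.0359). Usp2 had 1.42, 1.79 and 2.32 CPM in the 3 IRF8-cKO libraries, against 6.13, 7.08 and 10.1 CPM in the 3 WT libraries. The IRF8-cKO libraries were all below the lowest WT library. In classes with no call, the lowest p of the kinases belonged to Csnk1e, which marks PER for breakdown (log2 fold change -1.13, edgeR adjusted p = 0.140), and that of the other partners to Timeless (log2 fold change 0.72, edgeR adjusted p = 0.356). Hlf, a D-box activator of the same family as Dbp and named after its values were seen, was on the other side: 29.6 ± 12.6 CPM in IRF8-cKO and 9.64 ± 4.40 CPM in WT, with no overlap of libraries (log2 fold change 1.62, SE 0.42, edgeR adjusted p = 0.0770).

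**Figure D4:**
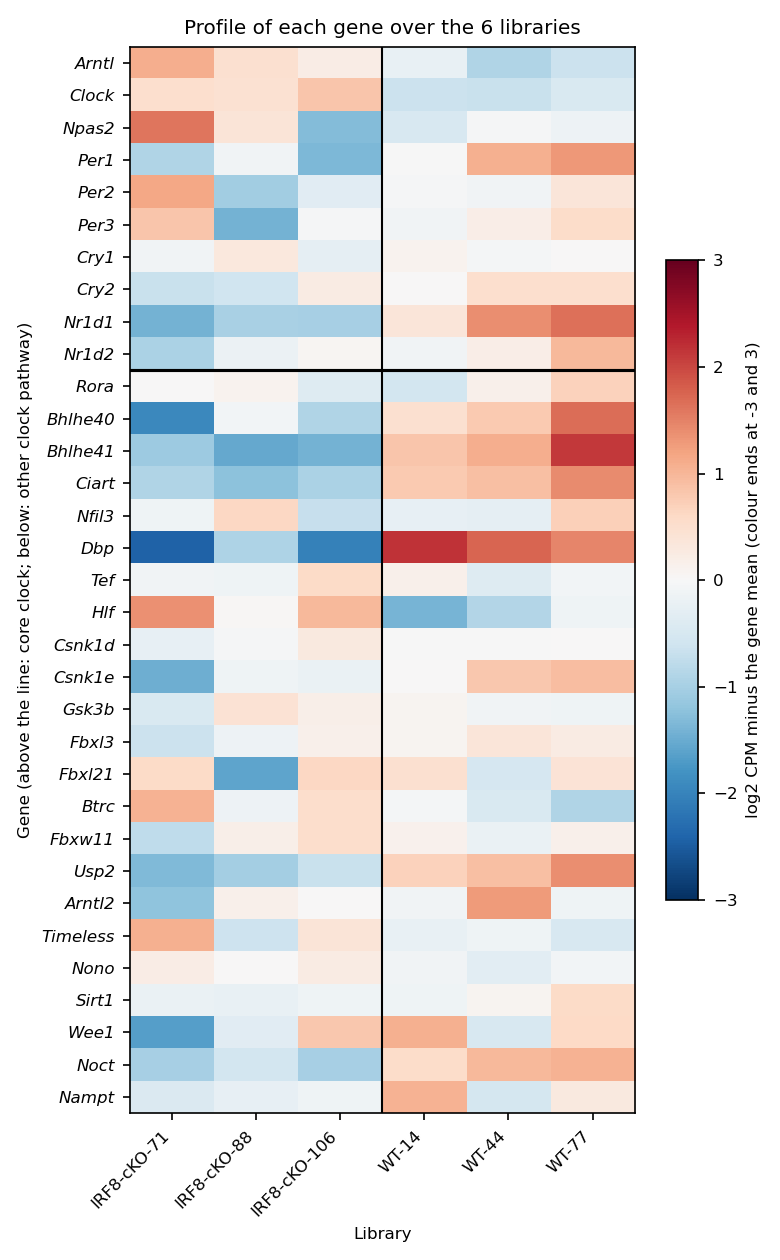
Log2 CPM of the 10 core clock genes (above the line) and other clock pathway genes (below it) in each library, relative to the mean of the gene over the 6 libraries, with IRF8-cKO libraries left and WT libraries right. Nr1d1, Dbp, Bhlhe41, Ciart, Usp2 and Noct are below their mean in all 3 IRF8-cKO libraries and above it in all 3 WT libraries. Arntl and Clock are the reverse. Other genes that did not pass share these patterns, such as Bhlhe40 and Csnk1e for the first and Hlf for the second.

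The tested protein-coding genes with the profile most like that of a member were found by the root mean square difference of centred log2 CPM over the 6 libraries, among 11962 genes outside the list. For Nr1d1 they were Slc25a29 (0.16), Klkb1 (0.17) and Ppp1r15a (0.22), all 3 called lower by edgeR (adjusted p 0.0337, 0.0243 and 0.0408). For Arntl they were Lrp1 (0.12), Pdxdc1 (0.12) and Txlng (0.13), and for Per1 they were Cxcr2 (0.14), Alpl (0.17) and Zfp949 (0.17), with none of these 6 called. The profiles of the members themselves had a root mean square of 1.21 for Nr1d1, 0.68 for Arntl and 0.95 for Per1, so these differences are small beside them. With 2 groups of 3 libraries, many genes share such a profile.

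Of the marker lists, the sums of immediate-early response, neutrophil and cholangiocyte genes lay apart between the groups, lower in IRF8-cKO. The sums of the other lists overlapped. Beside the calls given below, 0.937% of all tested genes were called lower. In bulk tissue, fewer cells of a type and less RNA per cell cannot be told apart. Over the immediate-early response genes, of which Per1 shares several inducers, 3 of 10 were called lower, and their summed level was 222 to 633 CPM in IRF8-cKO, against 1279 to 3818 CPM in WT. In this sum WT-14 was the lowest WT library, as for 6 of the 10 clock genes, Per1 and Nr1d1 among them. Of the IRF8-cKO libraries the sum was lowest in IRF8-cKO-71, as was Nr1d1, while Per1 was lowest in IRF8-cKO-106. Of 11 neutrophil markers, 5 of the 9 tested were called lower, with sums of 25.3 to 55.3 CPM in IRF8-cKO and 187 to 231 CPM in WT. Of 8 cholangiocyte markers, 0 of the 7 tested were called, with sums of 149 to 258 CPM in IRF8-cKO and 465 to 948 CPM in WT. Sums of hepatocyte (78345 to 108008 CPM in IRF8-cKO, 98930 to 141507 CPM in WT), Kupffer cell (101 to 297 CPM in IRF8-cKO, 86.4 to 108 CPM in WT), sinusoidal endothelial (128 to 193 CPM in IRF8-cKO, 137 to 194 CPM in WT), stellate cell (168 to 286 CPM in IRF8-cKO, 202 to 312 CPM in WT) and lymphocyte markers (1.11 to 1.79 CPM in IRF8-cKO, 0.61 to 2.16 CPM in WT) overlapped, with 0 calls in each list. No marker was at 0 in all libraries. The part of these cells and of the stress response in the levels of the clock genes was not tested.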

How the data were processed

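Deposited counts of 6 bulk RNA libraries (3 IRF8-cKO, 3 WT) from ischemic liver lobe were analysed. Per the submitters' processing notes the authors used build mm10, HISAT2 2.0.5 and featureCounts 1.5.0-p3. Raw counts, not normalised by the authors, were deposited for 54532 genes with their lengths. Strand setting, annotation release and multimapper handling were not given in the sources used here. Gene models of the 10 clock genes had the same start and end in GENCODE M21. Columns and groups were assigned by the titles. No pairing was modelled, as the groups have no replicate number in common. Within each group no library was a copy of another: chi-square tests gave at least 44.2 per degree of freedom. Pairs of libraries across the groups were not compared.

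Genes were filtered with filterByExpr (minimum count 10, minimum total 15), leaving 13134, and compared by a robust quasi-likelihood fit in edgeR 4.0.16 (R 4.3.3) with TMM scaling, a two-sided test and Benjamini-Hochberg adjustment over all genes tested. Log2 fold changes are IRF8-cKO over WT, and the SE is its size over the root of the F statistic. Genes varied between libraries of a group by a common coefficient of variation of 37.1%. Profiles and ratios used log2 CPM with a prior count of 2. Counting error limits Npas2 and Per3 most, with 6 to 74 reads. Alternatives were other scalings and filters, DESeq2 1.42.0, limma-voom (limma 3.58.1), a gene length correction (lowess, span 0.5) and each library left out. The procedure was tested on simulated data. The members, lists and tests were chosen with earlier results of these data known. Named were all members, Irf8, pathway genes that passed or had the lowest p of their class, the nearest profiles, and genes with exons overlapping a member. A result that this rule would name is not reported here.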

Additional observations from a re-analysis of the deposited data

How the results depend on the processing

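Over the alternatives run, Nr1d1, Per1, Nr1d2 and Cry2 kept a negative and Arntl and Clock a positive log2 fold change. Clock genes called lower numbered 1 on all libraries, 2 without a low-count filter and in DESeq2, and 0 to 2 with 1 library left out. Clock genes called higher numbered 0, and 1 with upper-quartile scaling and with the 1 CPM filter, 2 without a filter and in DESeq2, and 0 to 1 with 1 library left out. Other clock pathway genes called numbered 5, and 2 with library totals, 8 without a filter and 7 in DESeq2. They numbered 3 in limma-voom and with the length correction, and 0 to 7 with 1 library left out. Over the whole table, calls (lower, higher) numbered 182 (123, 59), and 82 (43, 39) with library totals, 1723 (906, 817) without a filter, 1423 (810, 613) in DESeq2, 111 (88, 23) in limma-voom, 77 (56, 21) with the length correction, and 0 to 1205 (0 to 630, 0 to 575) with 1 library left out. The run without a filter tested 24095 genes, against 13134 on the main settings. The 0 calls came without WT-77, where 1988 genes had an unadjusted p under 0.05, DESeq2 called 485 and limma-voom 0. Library totals moved the median log2 fold change over all genes to 0.25, against 0.03. Directions turned for Per3 to 0.028 and Cry1 to 0.17 with library totals, and Per2 to -0.18 in limma-voom. With 1 library left out Npas2 ran from -0.0023 to 1.43, Per2 from -0.75 to 0.49, Per3 from -0.86 to 0.24 and Cry1 from -0.21 to 0.11. Without mitochondrial genes, an alternative chosen after the data were seen, 180 genes (122 lower, 58 higher) were called in the whole table, and the numbers of clock and pathway genes called were as on all genes. The cause of these shifts was not tested. No paired analysis was possible because the groups share no replicate number. Depth limits Npas2 and Per3, whose fewest reads in a library were 11 and 6.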
